A study of Homo sapiens with 16 samples.

Results

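The 7 genes described here encode the RUNX transcription factors and the proteins they work with or are fused to in leukaemia: RUNX1, RUNX2 and RUNX3, their partner CBFB, and the ETO corepressors RUNX1T1, CBFA2T2 and CBFA2T3. They were taken by name, as the rows of the deposited count table that carry these symbols, 7 of 60603 rows in all. RNA was measured in 2 human acute myeloid leukaemia lines, SKNO-1 and U-937, each given vehicle (DMSO), all-trans retinoic acid (ATRA), Corin, or ATRA with Corin. Each agent was used at 0.1 µM and cells were taken at 24 h. Every one of the 8 groups held 2 libraries, 16 in all. Corin is a hybrid compound that inhibits the histone demethylase and the histone deacetylases of the CoREST repressor complex. SKNO-1 carries the translocation that joins RUNX1 to RUNX1T1, and U-937 is a monocytic line that does not. SKNO-1 alone was grown with the growth factor GM-CSF at 10 ng/mL, so line and medium cannot be told apart. Nothing in the labels says that the 2 libraries of a group came from separate cultures, so p-values measure the spread between these libraries, which may be technical.

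RUNX proteins bind DNA through their Runt domain, and CBFB, which does not touch DNA itself, joins that domain and strengthens the binding. RUNX1 is needed to form blood stem cells and later steers myeloid and lymphoid maturation, RUNX2 is best known as the master regulator of bone formation, and RUNX3 acts in T cells and monocytes. ETO proteins bind no DNA of their own and bring histone deacetylases and corepressors to other factors; the RUNX1-RUNX1T1 fusion joins the Runt domain to nearly the whole of ETO and so places that repressor at RUNX sites.

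Library totals ran from 32773327 to 37817309 counts in SKNO-1 and from 28414461 to 37563217 in U-937. All 7 myeloid markers examined reached a mean of 1 CPM (counts scaled to a common library size) in both lines, and the summed level of 3 T cell, 3 epithelial or 3 fibroblast markers did not pass 0.849 CPM in any library; 3 B cell markers summed to 0.500 to 2.71 in SKNO-1 and 2.69 to 5.14 in U-937. HOXA9 and HOXA10, which U-937 expresses, were at 0 in every SKNO-1 library. The 2 SKNO-1 DMSO libraries stood apart from each other: the standard deviation of their log2 difference over 9354 genes was 0.361, against 0.108 to 0.208 in the other 7 groups, and that difference followed the genes' GC content (r = 0.796 across 9338 genes with a GC value, which are not independent replicates). Changes against SKNO-1 DMSO were therefore computed with and without each of these libraries. With 1 of them left out, the spread of DMSO is taken from the other groups. A call in such a fit therefore does not measure the spread between the DMSO libraries. The same holds for any other group left with 1 library. Where a call, a direction or the size depends on the SKNO-1 DMSO libraries, both values are given, or the levels of the libraries are compared. In bulk RNA, a smaller number of cells that express a gene and less RNA per cell cannot be told apart.

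Levels of a gene are given below as CPM after TMM scaling within a line, as mean ± SD of 2 libraries, and the order of different genes' levels is read only from the authors' TPM, which corrects for length. Ratios of the counts of 2 genes are followed only from library to library and do not say which gene is higher. A gene is called changed at a Benjamini-Hochberg adjusted p under 0.05 in edgeR's quasi-likelihood test over all genes kept in that fit. With 2 libraries against 2, an exact permutation test could not go below p = 0.333.

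CBFB had the highest TPM of the 7 in both untreated lines, with 62.8 TPM for SKNO-1 and 52.7 for U-937. In SKNO-1 DMSO it was followed by RUNX1 at 36.6 TPM and RUNX1T1 at 26.9, whose libraries overlapped, then by RUNX2 at 9.76 and RUNX3 at 6.51, which also overlapped. CBFA2T2 at 3.85 and CBFA2T3 at 0.585 TPM were lowest there. In U-937 DMSO the order was CBFB, RUNX1 at 22.2 TPM, RUNX3 at 10.1, RUNX2 at 8.74, CBFA2T2 at 6.48 and CBFA2T3 at 1.63, with no overlap between neighbours, and RUNX1T1 at 0.005. This order was not fixed. In SKNO-1, RUNX1 stood above CBFB with Corin (61.0 against 45.3 TPM) and with both agents (38.6 against 32.6 TPM). RUNX1 reads in SKNO-1 include those of the fusion, so its rank there is not that of the intact gene alone. TPM also rests on the estimated length, which for RUNX1 there was 3392 bases with DMSO and 2984 with Corin. In U-937, RUNX2 stood above RUNX1 with both agents (15.5 against 10.5 TPM). The plot of levels by library shows each gene on its own scale.

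**Figure D1:**
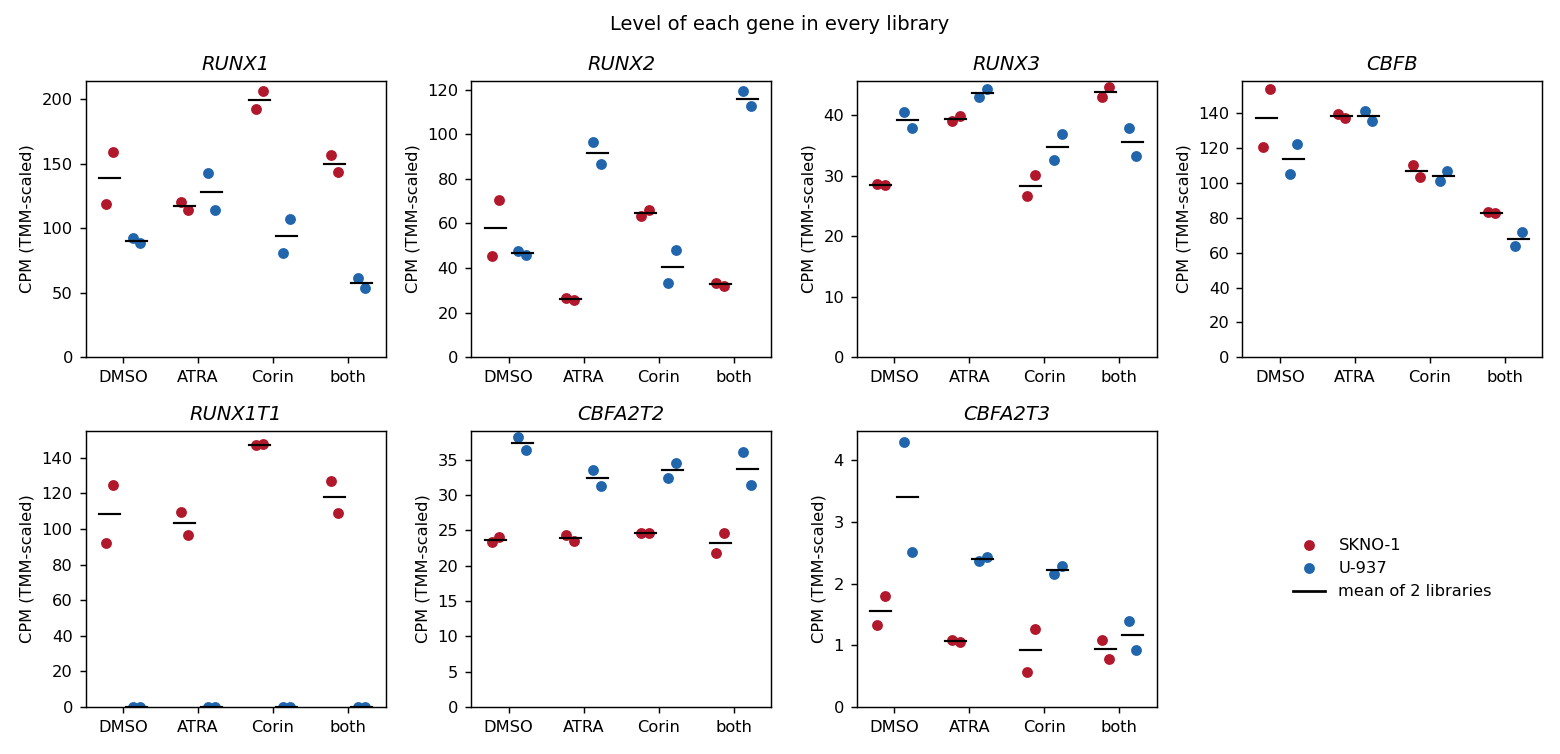
TMM-scaled CPM of the 7 genes (vertical axes, starting at 0) in every library, by treatment (horizontal axis) and line (colour); bars are means of 2 libraries. RUNX2 is lowest with ATRA in SKNO-1 (26.2 ± 0.727) and highest with both agents in U-937 (116 ± 4.69), while CBFB is lowest with both agents in each line.

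ATRA changed 2 of the 7 genes in SKNO-1, RUNX2 downward and RUNX3 upward, where 6.76% of the 17479 genes tested were called. Corin changed 3 of 7 in SKNO-1, RUNX1 and RUNX1T1 upward and CBFB downward, with 37.9% of all genes called. Fusion reads count toward both RUNX1 and RUNX1T1 in that line, so these 2 are not separate observations. Both agents together changed 3 of 7 there, RUNX3 upward and RUNX2 and CBFB downward, with 46.7% of all genes called. The median log2 fold change of the 7 was -0.07, 0.06 and -0.02 in these comparisons, and that of all genes was 0.01, 0.00 and 0.05.

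In U-937, RUNX1T1 was too low to test. ATRA changed 3 of the 6 others, RUNX1, RUNX2 and CBFB, all upward, where 41.8% of the 17717 genes tested were called. Corin alone changed 0 of 6, with 12.9% of genes called; CBFA2T3 was the only one of the 6 at an unadjusted p under 0.05, and DESeq2 also called 0. Both agents changed 4 of 6, RUNX2 upward and RUNX1, CBFB and CBFA2T3 downward, with 65.3% of genes called. The medians of the 6 were 0.22, -0.17 and -0.40 on the log2 scale, against 0.02, 0.00 and 0.03 over all genes. The median size of a change without regard to sign, with both agents in U-937, was 0.70 for the 6 and 0.75 for all genes.

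**Figure D2:**
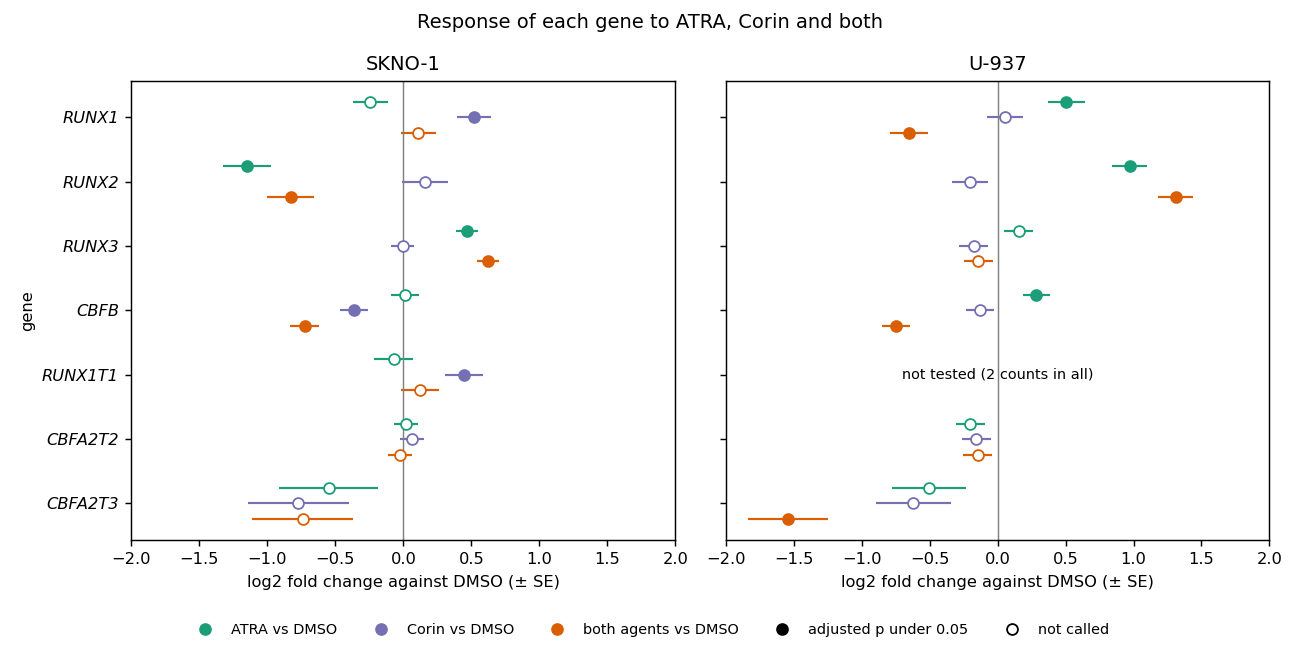
log2 fold change against DMSO (horizontal axis) with its standard error for each gene (vertical axis) and each treatment (colour) in SKNO-1 (left) and U-937 (right); filled points have an adjusted p under 0.05. RUNX2 lies left of 0 with ATRA and with both agents in SKNO-1 and right of 0 in U-937, and CBFB lies left of 0 with both agents in each line.

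The 2 agents can also be read one on top of the other. Against ATRA alone, both agents changed 1 of 7 genes in SKNO-1 (44.8% of all genes called), CBFB, and 5 of 6 in U-937 (47.4% called), where RUNX1, RUNX3, CBFB and CBFA2T3 were lower and RUNX2 higher. Against Corin alone, both agents changed 2 of 7 in SKNO-1 (10.4% called), RUNX2 downward and RUNX3 upward, and 4 of 6 in U-937 (60.5% called), RUNX2 upward and RUNX1, CBFB and CBFA2T3 downward. Departure from additivity is how far the log2 response to both agents lies from the single responses added together. In SKNO-1 it was called for 0 of 7 genes (0.463% of all genes called), with CBFB the only one at an unadjusted p under 0.05 and 0 called by DESeq2 as well. In U-937 it was called for 3 of 6 (23.4% called), RUNX1, RUNX2 and CBFB.

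RUNX1, the DNA-binding subunit most often mutated or rearranged in this leukaemia, lies on the minus strand at chr21:34787801-36004667 (hg38). In SKNO-1 its reads come from the intact gene and from the fusion, so a response of the intact gene alone cannot be read from them. SKNO-1 libraries held 118 and 159 CPM with DMSO, 121 and 114 with ATRA, 192 and 206 with Corin, and 156 and 143 with both agents. Only the Corin libraries lay above both DMSO libraries. RUNX1 rose with Corin from 139 ± 29.0 to 199 ± 9.84 CPM (log2 fold change 0.52, SE 0.127, adjusted p = 0.0139). Leaving out DMSO replicate 1 gave 0.30 and leaving out replicate 2 gave 0.73. The call was lost without Corin replicate 1 or 2, and with only the 4 libraries compared (adjusted p = 0.0591). With ATRA the log2 fold change was -0.24 (adjusted p = 0.379), and -0.28 without the low-count filter (adjusted p = 0.00850). The p-values of the unfiltered SKNO-1 fit treat the spread as known exactly, which 2 libraries a group cannot give. The ATRA change was -0.49 without DMSO replicate 1, while that library, at 118 CPM, lay between the ATRA libraries at 121 and 114. With both agents the change was 0.11 (adjusted p = 0.510), and 0.33 without DMSO replicate 2. The libraries with both agents, at 156 and 143 CPM, lay between the DMSO libraries at 118 and 159. The direction of that change therefore rests on which DMSO library is kept. Both agents gave 0.35 against ATRA alone (adjusted p = 0.0534) and -0.41 against Corin alone (adjusted p = 0.0775). DESeq2 called both (adjusted p = 0.0402 and 0.0166). Leaving out either DMSO library gave 0.38 and -0.40. Neither comparison uses DMSO, whose libraries enter only through the normalization and spread shared by the fit.

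U-937 libraries held 92.2 and 88.3 CPM of RUNX1 with DMSO, 142 and 114 with ATRA, 80.9 and 107 with Corin, and 61.6 and 53.3 with both agents. The ATRA pair lay above the DMSO pair and the pair with both agents below it, whereas the Corin libraries fell on either side. RUNX1 rose with ATRA (log2 0.51, SE 0.135, adjusted p = 0.00717), though the adjusted p was 0.0807 without ATRA replicate 1, where the change was 0.34, 0.0616 without DMSO replicate 2 and 0.135 with library totals in place of TMM. It fell with both agents, from 90.2 ± 2.78 to 57.4 ± 5.88 CPM (log2 -0.65, SE 0.137, adjusted p = 0.000671). Relative to ATRA alone the fall was larger (log2 -1.16, SE 0.137, adjusted p = 4.67e-06), and relative to Corin alone it was -0.71 (SE 0.137, adjusted p = 0.000374). The response to both agents lay 1.21 below the sum of the single responses on the log2 scale (estimate -1.21, SE 0.192, adjusted p = 0.000249). These 4 results with both agents kept their call under every alternative tried.

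RUNX2, the osteoblast regulator that is also expressed in myeloid and plasmacytoid dendritic progenitors, lies on the plus strand at chr6:45328157-45664349. It has an upstream and a downstream promoter. Both are shown because the RUNX2 response to ATRA had opposite signs in the 2 lines, with the upstream RUNX3 promoter beside them. The windows run from 250 bases before the start site to 50 after it, 5' to 3' on the gene's strand, from RefSeq on GRCh38.p14. Capitals mark the core RUNX motif TGTGGT on either strand, which reads ACCACA where it lies on the other strand.
RUNX2 upstream promoter, chr6:45328080-45328379, plus strand: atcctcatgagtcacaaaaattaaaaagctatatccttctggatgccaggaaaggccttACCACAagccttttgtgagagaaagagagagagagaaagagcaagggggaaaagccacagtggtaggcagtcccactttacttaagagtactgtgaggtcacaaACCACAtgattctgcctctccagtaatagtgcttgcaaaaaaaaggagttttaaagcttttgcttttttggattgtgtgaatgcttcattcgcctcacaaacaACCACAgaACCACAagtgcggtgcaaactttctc
RUNX2 downstream promoter, chr6:45422025-45422324, plus strand: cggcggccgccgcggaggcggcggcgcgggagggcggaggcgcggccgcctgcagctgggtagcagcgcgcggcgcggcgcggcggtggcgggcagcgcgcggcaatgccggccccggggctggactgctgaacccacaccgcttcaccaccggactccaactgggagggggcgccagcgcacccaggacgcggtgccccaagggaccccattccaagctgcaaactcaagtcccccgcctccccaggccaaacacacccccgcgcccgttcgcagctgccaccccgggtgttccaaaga
RUNX3 upstream promoter, chr1:24964961-24965260, minus strand: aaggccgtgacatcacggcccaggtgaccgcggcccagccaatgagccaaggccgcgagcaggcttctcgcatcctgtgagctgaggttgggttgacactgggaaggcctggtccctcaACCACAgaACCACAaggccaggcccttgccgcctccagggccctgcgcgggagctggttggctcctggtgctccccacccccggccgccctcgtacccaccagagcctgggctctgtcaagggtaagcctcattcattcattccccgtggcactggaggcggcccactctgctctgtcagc

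The RUNX2 upstream window held 4 matches and the RUNX3 upstream window held 2, while 4591 of the 35116 promoter windows of this length (13.074%) held at least 1. In both windows a pair of matches lay side by side, ACCACAgaACCACA. The RUNX2 downstream window held 0, as did the windows of RUNX1 and of CBFA2T2 and CBFA2T3 and the downstream window of RUNX3, so 2 of 7 windows of 5 of the genes had a match. The RUNX1 window is the downstream one, and the upstream promoter of RUNX1 and the promoters of CBFB and RUNX1T1 were not searched here. For the retinoic acid response elements DR5 and DR2, only exact direct repeats of AGGTCA with 5 or 2 bases between them were searched, on both strands. They were in 2 and 1 of the 35116 windows (0.006% and 0.003%) and in none of these 7. At so low a rate the search could hardly find a match in 7 windows, so it says nothing about these genes. Repeats that differ from AGGTCA in any base were not searched. A match is a description of the letters in these windows, and no binding was measured here.

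SKNO-1 libraries held 45.5 and 70.5 CPM of RUNX2 with DMSO, 26.7 and 25.7 with ATRA, 63.4 and 66.2 with Corin, and 33.3 and 32.0 with both agents. Every library that received ATRA lay below every library that did not. RUNX2 fell with ATRA by 1.15 on the log2 scale (SE 0.176, adjusted p = 0.00613), by 1.47 without DMSO replicate 1 and by 0.84 without DMSO replicate 2. The call was lost without ATRA replicate 1 or 2 (adjusted p = 0.0576 and 0.0666) and with only the 4 libraries compared (adjusted p = 0.106), with log2 changes of -1.22, -1.17 and -1.16. With both agents it fell by 0.83 against DMSO (SE 0.174, adjusted p = 0.00565), a call kept under every alternative; leaving out DMSO replicate 1 gave -1.12 and leaving out replicate 2 gave -0.49. Against Corin alone, both agents gave -0.99 (SE 0.175, adjusted p = 0.0123), and leaving out any 1 of these 4 libraries ended that call (adjusted p = 0.0967 to 0.122). Against ATRA alone, both agents gave 0.32 (adjusted p = 0.179), and 0.35 with either DMSO library left out, though this comparison does not use DMSO. Corin alone gave 0.16 (adjusted p = 0.502), and 0.49 without DMSO replicate 2. The Corin libraries, at 63.4 and 66.2 CPM, lay between the DMSO libraries at 45.5 and 70.5, so the direction rests on which DMSO library is kept.

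U-937 libraries held 47.6 and 46.0 CPM of RUNX2 with DMSO, 96.5 and 86.9 with ATRA, 33.5 and 47.9 with Corin, and 119 and 113 with both agents. Here every library with ATRA lay above every library without it. RUNX2 rose with ATRA from 46.8 ± 1.12 to 91.7 ± 6.82 CPM (log2 0.97, SE 0.131, adjusted p = 1.22e-05). With both agents it rose to 116 ± 4.69 (log2 1.31, SE 0.131, adjusted p = 1.17e-07), and against Corin alone the difference was 1.51 (SE 0.132, adjusted p = 2.35e-08). These 3 calls held under every alternative tried. Adding Corin to ATRA gave 0.34 more (SE 0.128, adjusted p = 0.0385), and the departure from additivity was 0.54 (SE 0.184, adjusted p = 0.0418). The first was lost without replicate 1 of both agents, ATRA replicate 2 or either DMSO replicate (adjusted p = 0.111, 0.193, 0.0577 and 0.0583). The departure was lost without any of those 4 libraries (adjusted p = 0.0683, 0.113, 0.120 and 0.0884) or Corin replicate 1, where it was 0.30 (adjusted p = 0.187). With the replicate number as a block the adjusted p was 0.0575 for the first and 0.0634 for the departure, and with library totals it was 0.243 and 0.256. Removing the GC trend gave 0.0647 for the departure, and removing it with the block gave 0.0548 for the first and 0.0873 for the departure. Corin alone gave -0.20 (adjusted p = 0.363), but -0.48 without Corin replicate 2 (adjusted p = 0.00964).

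The difference between the lines in each response was tested in a fit of all 16 libraries. For RUNX1 the SKNO-1 side of each difference includes reads of the fusion. ATRA responses differed between the lines for 2 of 6 genes (19.4% of 19872 genes called), RUNX2 by 2.16 on the log2 scale (U-937 minus SKNO-1, SE 0.264, adjusted p = 6.57e-05) and RUNX1 by 0.79 (SE 0.220, adjusted p = 0.0198). Responses to Corin differed for 0 of 6 (12.8% called); none of the 6 reached an unadjusted p under 0.05 and DESeq2 called 0. Responses to both agents differed for 3 of 6 (40.6% called), RUNX2 by 2.19 (SE 0.263, adjusted p = 1.64e-05), RUNX1 by -0.71 (SE 0.221, adjusted p = 0.0182) and RUNX3 by -0.72 (SE 0.142, adjusted p = 0.000388). The RUNX2 differences held under every alternative and were 2.39 for ATRA and 2.46 for both agents without SKNO-1 DMSO replicate 1, and 1.75 and 1.83 without SKNO-1 DMSO replicate 2. The RUNX1 difference in the ATRA response was 0.50 without SKNO-1 DMSO replicate 2 (adjusted p = 0.0817) and was also lost without either SKNO-1 ATRA library, U-937 ATRA replicate 1 or either U-937 DMSO library (adjusted p = 0.0581, 0.0854, 0.111, 0.0622 and 0.0898). Library totals and the replicate block with the GC trend removed ended that call too (adjusted p = 0.0909 and 0.0710). Its difference in the response to both agents was lost without SKNO-1 replicate 1 or U-937 replicate 2 of both agents, or without U-937 DMSO replicate 1 (adjusted p = 0.0526, 0.0758 and 0.0509), and with the block and the GC trend removed (adjusted p = 0.0600). The CBFB difference in the ATRA response, not called as fitted, was 0.36 with the GC trend removed (adjusted p = 0.00713), and the RUNX1 difference in the Corin response was -0.47 without the low-count filter (adjusted p = 0.0103).

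3 genes lie on the strand opposite RUNX2 and share part of its span; whether counting kept the strands apart is not given in the sources used here. SUPT3H, a subunit of the SAGA coactivator, had 136 to 165 counts in SKNO-1 and 293 to 554 in U-937. It rose with both agents in U-937, from 12.5 ± 1.40 to 17.2 ± 1.19 CPM (log2 0.46, SE 0.133, adjusted p = 0.00439), and was not called in the other 5 comparisons with DMSO, nor in SKNO-1 without either DMSO library. RUNX2-AS1, the third, had at most 2 counts in any library. The long noncoding RNA gene ENSG00000271857 (chr6:45421079-45422005, minus strand) starts 270 bases before the downstream RUNX2 start and runs away from it. Its U-937 counts were 41 and 51 with DMSO, 123 and 114 with ATRA, 36 and 35 with Corin, and 173 and 189 with both agents. As with RUNX2, both ATRA groups lay above the groups without ATRA in this line (log2 1.19, SE 0.252, adjusted p = 0.000512 for ATRA; log2 1.94, SE 0.249, adjusted p = 2.88e-07 for both agents). In SKNO-1 its counts were 44 and 42 with DMSO, 28 and 35 with ATRA, 86 and 94 with Corin, and 42 and 77 with both agents. Corin raised it there (log2 1.13, SE 0.282, adjusted p = 0.0151). That value was 1.21 and 1.01 without DMSO replicate 1 and 2. The pseudogenes, microRNA genes and other noncoding genes inside the 7 loci had at most 32 counts in any library.

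RUNX3, a RUNX factor that marks cytotoxic lymphocytes and myeloid cells, lies on the minus strand at chr1:24899511-24965121. SKNO-1 libraries held 28.6 and 28.4 CPM with DMSO, 39.0 and 39.9 with ATRA, 26.6 and 30.1 with Corin, and 43.1 and 44.7 with both agents. The 4 libraries with ATRA were all above the 4 without it. RUNX3 rose with ATRA (log2 0.47, SE 0.0822, adjusted p = 0.0117) and with both agents (log2 0.62, SE 0.0823, adjusted p = 0.000603), and against Corin alone both agents gave 0.63 (SE 0.0824, adjusted p = 0.00307). Leaving out DMSO replicate 1 gave 0.43 for ATRA and leaving out replicate 2 gave 0.42. The value was no longer called without ATRA replicate 1 or 2 (adjusted p = 0.137 and 0.176) or with only the 4 libraries compared (adjusted p = 0.120). The response to both agents was 0.61 without either DMSO library and was called under every alternative; removing the trend with GC content lowered it to 0.43. Against Corin alone the call was lost without replicate 2 of both agents (log2 0.60, adjusted p = 0.0530), and with the GC trend removed the value was 0.34 (adjusted p = 0.0770).

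In U-937, RUNX3 was at 40.5 and 37.9 CPM with DMSO, 43.0 and 44.4 with ATRA, 32.6 and 36.8 with Corin, and 37.8 and 33.2 with both agents. Although none of these pairs overlapped the DMSO pair, the log2 fold changes of 0.16, -0.18 and -0.14 were not called (adjusted p = 0.249, 0.324 and 0.252). With both agents it was lower than with ATRA alone (log2 -0.30, SE 0.106, adjusted p = 0.0237). That call was lost without ATRA replicate 1 or 2 or replicate 2 of both agents (adjusted p = 0.0695, 0.146 and 0.215), and with the replicate block and the GC trend removed (log2 -0.23, adjusted p = 0.0692). With ATRA in SKNO-1, RUNX3 and RUNX2 moved in opposite directions.

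CBFB, the shared partner of all 3 RUNX proteins, lies on the plus strand at chr16:67028984-67101058. SKNO-1 libraries held 121 and 154 CPM with DMSO, 140.0 and 137 with ATRA, 110.2 and 103 with Corin, and 83.5 and 82.7 with both agents. Its U-937 libraries held 105 and 122, 141 and 136, 101 and 107, and 63.6 and 71.8 CPM in the same order. In each line the pair with both agents was below all 6 other libraries. CBFB fell with both agents by 0.73 on the log2 scale in SKNO-1 (SE 0.106, adjusted p = 0.00100) and by 0.75 in U-937 (SE 0.102, adjusted p = 7.92e-07). The difference between these 2 responses was 0.02 (SE 0.156, adjusted p = 0.982). The SKNO-1 change was -0.91 with DMSO replicate 1 left out, -0.55 with replicate 2 left out and -0.54 with the GC trend removed, and the calls in both lines held under every alternative.

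Relative to ATRA alone, both agents lowered CBFB by 0.74 in SKNO-1 (log2 -0.74, SE 0.106, adjusted p = 0.000976) and by 1.03 in U-937 (log2 -1.03, SE 0.102, adjusted p = 1.07e-08). Relative to Corin alone, the value was -0.62 in U-937 (SE 0.102, adjusted p = 1.31e-05) and -0.36 in SKNO-1 (adjusted p = 0.0673). DESeq2 called the SKNO-1 value (log2 -0.40, adjusted p = 0.0177). Leaving out either SKNO-1 DMSO library gave -0.35, though this comparison does not use DMSO. In U-937 the response to both agents lay 0.91 below additivity (estimate -0.91, SE 0.144, adjusted p = 3.86e-05), a call kept under every alternative. In SKNO-1 the departure was -0.37 (adjusted p = 0.331), and -0.51 without DMSO replicate 2, the higher of the 2 DMSO libraries.

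Single agents moved CBFB less. Corin lowered it in SKNO-1 (log2 -0.36, SE 0.105, adjusted p = 0.0275), by 0.55 without DMSO replicate 1 and by 0.20 without DMSO replicate 2. That call was lost without any 1 of the 2 Corin libraries or the 2 libraries with both agents (adjusted p = 0.0536 to 0.163), with library totals (log2 -0.33, adjusted p = 0.0838) and with only the 4 libraries compared (adjusted p = 0.113). ATRA gave 0.01 in SKNO-1 (adjusted p = 0.982), and the sign rested on the DMSO libraries: it was -0.20 without replicate 1 and 0.16 without replicate 2. ATRA raised it in U-937 (log2 0.28, SE 0.101, adjusted p = 0.0262), but not without ATRA replicate 1 or 2 or DMSO replicate 1, where the adjusted p was 0.165, 0.104 and 0.303 and the last value was 0.18, nor with library totals (adjusted p = 0.0720) or without the low-count filter (adjusted p = 0.0560). Corin in U-937 gave -0.13 (adjusted p = 0.470).

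RUNX1T1, the ETO corepressor, lies on chr8 and is shown without sequence. In SKNO-1 its reads come largely from the fusion transcript, which starts at the RUNX1 promoter. SKNO-1 libraries held 92.0 and 125 CPM with DMSO, 109.8 and 96.4 with ATRA, 147 and 148 with Corin, and 127 and 109 with both agents. The Corin libraries were the highest 2 of the 8. All 8 U-937 libraries together held 2 counts. In DMSO, SKNO-1 held 7911 counts and U-937 held 1, a depth-adjusted ratio of 7312 with a 95% interval of 1312 to 288845 that covers counting error only. Corin raised RUNX1T1 in SKNO-1 (log2 0.45, SE 0.141, adjusted p = 0.0391). Leaving out DMSO replicate 1 gave 0.22 (adjusted p = 0.182) and leaving out replicate 2 gave 0.66, and the call was lost without any 1 of the other 6 libraries (adjusted p = 0.0557 to 0.154), with a replicate block (adjusted p = 0.0627) and with only the 4 libraries compared (adjusted p = 0.0869). ATRA gave -0.07 (adjusted p = 0.878) and both agents gave 0.12 (adjusted p = 0.512). The ATRA libraries and the mean with both agents, 118 CPM, lay between the DMSO libraries, so these directions rest on which DMSO library is kept.

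RUNX1T1 followed RUNX1 across the SKNO-1 libraries. Their count ratio, RUNX1T1 over RUNX1, was 0.777 and 0.782 with DMSO, 0.911 and 0.844 with ATRA, 0.765 and 0.717 with Corin, and 0.812 and 0.758 with both agents. The ATRA libraries had the highest ratios and lay above both DMSO libraries. Pearson's r between the 2 genes' log2 levels was 0.962 over these 8 libraries, which share treatments and, for the fusion, a promoter. Reads of the fusion count toward both genes, so a steady ratio and a high r are partly built in. The ratio of RUNX2 to RUNX1 counts, whose SKNO-1 denominator includes fusion reads, changed with treatment in both lines. In U-937 it was 0.516 and 0.521 with DMSO, 0.678 and 0.763 with ATRA, 0.414 and 0.448 with Corin, and 1.94 and 2.11 with both agents; in SKNO-1 it was 0.384 and 0.442, 0.222 and 0.225, 0.329 and 0.321, and 0.213 and 0.223 in that order. The pair of U-937 libraries with both agents had the highest ratios of the 16, and in TPM, which corrects for length, the ratio there was 1.47 against 0.393 with DMSO.

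**Figure D3:**
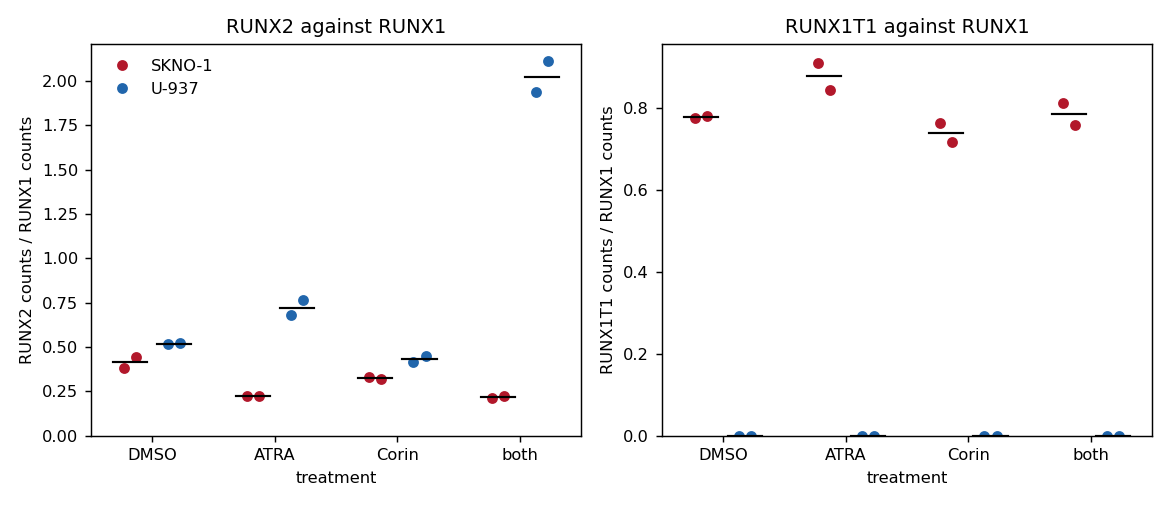
Ratio of RUNX2 to RUNX1 counts (left) and of RUNX1T1 to RUNX1 counts (right) in every library by treatment (horizontal axis) and line (colour); bars are means of 2 libraries. Counts are not corrected for the genes' lengths, so heights are to be compared between libraries only. U-937 with both agents stands at 1.94 and 2.11 on the left, and every U-937 library is near 0 on the right.

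CBFA2T2, the ETO relative found in most tissues and in germ and embryonic stem cells, lies on the plus strand at chr20:33490075-33650036. Its level hardly differed among SKNO-1 libraries, which ranged from 21.8 to 24.7 CPM, and none of its log2 fold changes against DMSO passed the test there (0.02, 0.06 and -0.02; adjusted p = 0.962, 0.618 and 0.850). Leaving out either DMSO library gave -0.06 to 0.07 and no call. U-937 libraries held 38.3 and 36.3 CPM with DMSO and 31.3 to 36.0 with the agents, all below the DMSO pair. The 3 values of -0.20, -0.16 and -0.14 were not called either (adjusted p = 0.135, 0.386 and 0.240).

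CBFA2T3, the ETO relative that works in haematopoietic progenitors and erythroid and megakaryocytic cells, lies on the minus strand at chr16:88874858-88977207 and was low in both lines. U-937 libraries held 137 and 74 counts with DMSO, 86 and 80 with ATRA, 81 and 70 with Corin, and 47 and 27 with both agents. SKNO-1 libraries held 46 and 68, 36 and 39, 20 and 43, and 35 and 26 counts in that order. In both lines every library with an agent had fewer CPM than either DMSO library. CBFA2T3 fell with both agents in U-937 from 3.40 ± 1.26 to 1.16 ± 0.327 CPM (log2 -1.54, SE 0.294, adjusted p = 6.88e-05). That call held under every alternative, at -1.11 to -2.08. Against ATRA alone the value was -1.04 (SE 0.298, adjusted p = 0.00575) and against Corin alone -0.92 (SE 0.30, adjusted p = 0.0102); both were lost without replicate 2 of both agents (-0.78 and -0.68; adjusted p = 0.0639 and 0.0949). In SKNO-1 the values against DMSO were -0.55 with ATRA, -0.77 with Corin and -0.74 with both agents (adjusted p = 0.513, 0.139 and 0.140). Without SKNO-1 DMSO replicate 1, those for Corin and both agents were -0.99 and -0.95, and without replicate 2 they were -0.56 and -0.52. The Corin value was -1.45 without Corin replicate 2 (adjusted p = 0.0407) and -0.31 without Corin replicate 1 (adjusted p = 0.547). Without the low-count filter the values for Corin and both agents were called (adjusted p = 0.0462 and 0.0468), with the spread treated as known exactly. In U-937 the ATRA value, not called as fitted, was -0.84 without DMSO replicate 2 (adjusted p = 0.0348) and -0.63 with the GC trend removed (adjusted p = 0.0479).

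Untreated U-937 and SKNO-1 differed for 6 of the 7 genes, where 64.8% of the 19872 genes tested were called. The CPM in this paragraph are scaled over all 16 libraries. RUNX1 was lower in U-937, at 87.1 ± 2.65 against 147 ± 33.8 CPM (log2 -0.75, SE 0.156, adjusted p = 0.000676). In SKNO-1 that level adds reads of the fusion to those of the intact gene. CBFB was lower too, at 109.8 ± 11.9 against 145 ± 28.1 (log2 -0.40, SE 0.110, adjusted p = 0.00348), although not without SKNO-1 DMSO replicate 2 (log2 -0.17, adjusted p = 0.136) or U-937 DMSO replicate 1 (log2 -0.25, adjusted p = 0.0980), with library totals (log2 -0.23, adjusted p = 0.0969) or with only the 4 libraries compared (adjusted p = 0.0555). RUNX1T1 was the third gene lower in U-937. RUNX3 was higher there, at 37.8 ± 1.73 against 30.0 ± 0.556 (log2 0.33, SE 0.100, adjusted p = 0.00701; 0.0660 with only the 4 libraries compared), as was CBFA2T2 at 36.0 ± 1.30 against 24.9 ± 1.09 (log2 0.53, SE 0.103, adjusted p = 0.000160). CBFA2T3 was at 3.28 ± 1.21 in U-937 against 1.65 ± 0.380 (log2 0.99, SE 0.318, adjusted p = 0.0104), but 0.59 without U-937 DMSO replicate 1 (adjusted p = 0.184). RUNX2, at 45.1 ± 1.07 against 61.3 ± 20.0, missed the threshold (log2 -0.44, adjusted p = 0.0505), and without SKNO-1 DMSO replicate 1 the value was -0.68 (adjusted p = 0.000203); DESeq2 and the fit with no low-count filter called it (adjusted p = 0.0379 and 9.53e-05).

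The authors' RSEM files also give for each gene an estimated length, the mean of its transcripts' lengths weighted by their abundance, which moves when the mix of transcripts moves. For RUNX1 it was 3164 and 3620 bases with DMSO, 3217 and 3288 with ATRA, 3016 and 2951 with Corin, and 2772 and 2798 with both agents in SKNO-1. In U-937 it ranged from 3776 to 4573 bases, above every SKNO-1 library. GENCODE 44 lists 18 RUNX1 transcripts of 251 to 7274 bases, and none of them is the fusion. Within SKNO-1 the 4 libraries with Corin had shorter estimates than the 4 without it. RUNX2, in contrast, stayed between 5298 and 5472 bases in all 16 libraries, and RUNX3 between 3861 and 3956. These lengths are estimates from short reads and were not tested.

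**Figure D4:**
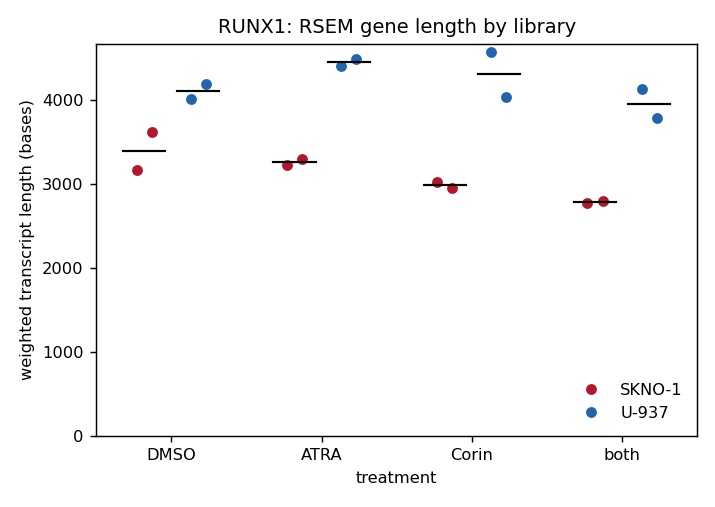
Abundance-weighted RUNX1 transcript length in bases, as estimated by RSEM (vertical axis, starting at 0), in every library by treatment (horizontal axis) and line (colour); bars are means of 2 libraries. SKNO-1 libraries lie between 2772 and 3620 bases and U-937 libraries between 3776 and 4573.

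3 gene lists place these results among the proteins that RUNX and ETO factors work with and the genes they control. Of 16 partners of the ETO proteins and the fusion, such as E proteins, histone deacetylases and the LMO2 and TAL1 complex, 15 were tested in each line. In SKNO-1, 0 rose and 2 fell with ATRA, 2 rose and 3 fell with Corin, and 2 rose and 5 fell with both agents; the medians were 0.02, -0.11 and -0.12. Over all genes 6.76%, 37.9% and 46.7% were called there, with medians of 0.01, 0.00 and 0.05. Without DMSO replicate 1 the counts were 4 up and 4 down, 3 and 6, and 5 and 7 (29.1%, 49.3% and 60.6% of all genes called), and without replicate 2 they were 2 and 5, 3 and 7, and 2 and 8 (24.7%, 52.1% and 52.8%). The median for both agents was 0.06 and -0.18 in these fits. In U-937, 2 rose and 6 fell with ATRA, 1 rose and 1 fell with Corin, and 3 rose and 10 fell with both agents; the medians were -0.27, -0.10 and -0.64, against 0.02, 0.00 and 0.03 over all genes, of which 41.8%, 12.9% and 65.3% were called. LMO2, a bridging protein of haematopoietic complexes, fell with Corin in SKNO-1 from 93.5 ± 8.11 to 38.7 ± 2.09 CPM (log2 -1.27, SE 0.0797, adjusted p = 2.72e-05). In U-937 it rose with Corin (log2 0.36, SE 0.106, adjusted p = 0.0268). GATA2, a stem cell transcription factor, fell with ATRA in SKNO-1 (log2 -1.13, SE 0.166, adjusted p = 0.00495), by 0.87 and 1.42 without DMSO replicate 1 and 2. PRMT1, an arginine methyltransferase that binds the fusion, fell with both agents in U-937 from 94.7 ± 4.14 to 31.5 ± 0.410 CPM (log2 -1.59, SE 0.113, adjusted p = 1.31e-11), and the E protein TCF3 fell there as well (log2 -1.57, SE 0.115, adjusted p = 2.09e-11).

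Of 20 partners and modifiers of RUNX proteins, 16 were tested in SKNO-1 and 17 in U-937. In SKNO-1, 1 rose and 1 fell with ATRA, 3 rose and 2 fell with Corin, and 5 rose and 4 fell with both agents, with medians of -0.14, 0.00 and -0.05, beside 6.76%, 37.9% and 46.7% of all genes called and medians of 0.01, 0.00 and 0.05. Of 17 tested without DMSO replicate 1 the medians were -0.01, 0.00 and -0.04, and without replicate 2 they were -0.03, 0.12 and 0.05. Those of all genes were -0.01, 0.03 and 0.11 without replicate 1, and -0.04, 0.01 and 0.05 without replicate 2. In U-937, 7 rose and 3 fell, 4 rose and 1 fell, and 7 rose and 7 fell in that order, with medians of 0.13, -0.07 and 0.03, beside 41.8%, 12.9% and 65.3% of all genes called and medians of 0.02, 0.00 and 0.03. CDK6, a kinase that binds RUNX1 and blocks its activity, fell with ATRA (log2 -1.19, adjusted p = 2.67e-09), with Corin (log2 -0.63, adjusted p = 0.000127) and with both agents (log2 -2.03, adjusted p = 5.56e-14) in U-937, where it went from 849 ± 46.7 CPM with DMSO to 207 ± 7.70 with both. In SKNO-1 it fell from 1571 ± 303 to 646 ± 16.4 CPM with both agents (log2 -1.28, SE 0.114, adjusted p = 9.19e-05). ERG, an ETS factor that shares sites with RUNX1, rose with Corin in SKNO-1 from 75.1 ± 1.61 to 177 ± 4.81 CPM (log2 1.24, SE 0.0559, adjusted p = 6.60e-06). SUV39H1, a histone methyltransferase bound by RUNX1, fell with both agents in U-937 (log2 -1.86, SE 0.115, adjusted p = 8.90e-13).

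Of 24 known targets of RUNX1 or the fusion in myeloid cells, 21 were tested in SKNO-1 and 20 in U-937. In SKNO-1, 4 rose and 6 fell with ATRA, 7 rose and 4 fell with Corin, and 12 rose and 2 fell with both agents, with medians of -0.09, 0.17 and 0.55, beside 6.76%, 37.9% and 46.7% of all genes called and medians of 0.01, 0.00 and 0.05. The ATRA median turned with the DMSO libraries: it was 0.28 without replicate 1 and -0.41 without replicate 2. For Corin the median was 0.39 and 0.03 in these fits, and for both agents 1.01 and 0.42. Medians of all genes for ATRA, Corin and both agents were -0.01, 0.03 and 0.11 without replicate 1. Without replicate 2 they were -0.04, 0.01 and 0.05. In U-937, 10 rose and 5 fell, 5 rose and 4 fell, and 9 rose and 8 fell in that order, with medians of 0.38, 0.24 and 0.06, beside 41.8%, 12.9% and 65.3% of all genes called and medians of 0.02, 0.00 and 0.03. PRTN3, a granule protease, rose with both agents in SKNO-1 from 7.96 ± 3.92 to 66.0 ± 5.26 CPM (log2 3.06, SE 0.281, adjusted p = 0.000104). In a different comparison, Corin alone, ELANE, a related protease, fell there from 34.8 ± 19.9 to 11.2 ± 0.370 CPM (log2 -1.63, SE 0.336, adjusted p = 0.00687). The PRTN3 value was 3.65 and 2.61 without DMSO replicate 1 and 2, and the ELANE value -0.91 and -2.14. ID1, an inhibitor of E proteins, rose with both agents in SKNO-1 (log2 2.43, adjusted p = 2.77e-05) and in U-937 (log2 4.98, adjusted p = 1.35e-11). CSF1R, the receptor that drives monocyte growth, rose in U-937 from 0.803 ± 0.161 CPM with DMSO to 5.12 ± 0.102 with ATRA, 10.1 ± 0.808 with Corin and 31.3 ± 0.183 with both agents (log2 5.29, SE 0.186, adjusted p = 3.19e-17 for both). CDKN1A, which encodes the cell cycle inhibitor p21, rose with Corin in SKNO-1 (log2 1.97, adjusted p = 6.19e-05) and in U-937 (log2 1.63, adjusted p = 3.66e-07). The named SKNO-1 values of LMO2, CDK6, ERG, ID1 and CDKN1A moved by less than 1.5 times without either DMSO library.

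The genes whose levels ran most like each member were found as the highest Pearson r of log2 CPM over the 16 libraries, after centring each line; the libraries share treatments and lines, and the values are descriptions. For RUNX1 they were SVIL (r = 0.925) and UBQLN2 (0.900), and for RUNX2 TET2 (0.937) and MYD88 (0.935). RUNX3 ran most like TMC8 (0.906) and AOPEP (0.871), and CBFB most like DPY19L1 (0.978) and PPM1D (0.974). CBFA2T2 had no pattern as near, with RNF214 at 0.758 and YEATS2 at 0.748. For RUNX1T1, over the 8 SKNO-1 libraries, they were WASF1 (0.988) and MBTPS2 (0.985). CBFA2T3 was below the 5 CPM minimum set for this search.

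The authors' deposited table of DESeq2 comparisons gave values near these for most calls and differed in 3. In the authors' deposited table the log2 fold change of RUNX2 with ATRA in SKNO-1 was -1.16 (adjusted p = 4.04e-05). RUNX3 with ATRA in SKNO-1 was at 0.46 in the authors' deposited table and not called (adjusted p = 0.0922). With Corin in SKNO-1, the authors' deposited table called RUNX1 (0.49, adjusted p = 0.0322) but not CBFB (-0.40, adjusted p = 0.0806) or RUNX1T1 (0.41, adjusted p = 0.0848). With both agents in U-937 the authors' deposited table called RUNX2 (1.28, adjusted p = 5.38e-27), RUNX1 (-0.68, adjusted p = 2.14e-07), CBFB (-0.77, adjusted p = 2.62e-08) and CBFA2T3 (-1.57, adjusted p = 0.00181).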

How the data were processed

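RNA was sequenced from SKNO-1 and U-937 cells with a stranded total RNA kit, per the labels' protocols. The submitters' processing notes name Trimmomatic, STAR, RSEM and DESeq2 and the hg38 build; versions, and how strand and mates were used in counting, are not given in the sources used here. The authors deposited RSEM estimated counts and TPM per gene, with estimated transcript lengths, and a table of log2 fold changes, p-values and adjusted p-values from DESeq2. Deposited lengths exceeded effective lengths by 99.68 bases at the median, close to one read of 100 bases. The members and gene lists were chosen with earlier results of these data known, and the lists' members are given by role in the report.

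Estimated counts were rounded and tested with edgeR 4.0.16 (R 4.3.3; filterByExpr, TMM, robust quasi-likelihood, Benjamini-Hochberg) in 1 fit for each line of 8 libraries, and in 1 fit of all 16 for contrasts between lines. The fits held 17479, 17717 and 19872 genes. Alternatives were DESeq2 1.42.0, library totals, no low-count filter, a replicate block, a GC correction, only the libraries compared, and each library left out. In SKNO-1 the fit with no low-count filter treated the spread as known exactly, so calls gained there carry less weight. List values without each SKNO-1 DMSO library were added after seeing the data. The code was tested on data simulated for ATRA against DMSO with few genes changed. It recovered 23.7% of 1.5-fold changes in SKNO-1 and 47.5% in U-937. For 2-fold changes these shares were 58.2% and 63.3%. A gene not called may therefore still have changed. Precision rests on 2 libraries a group. Every replicate pair differed beyond sampling noise (chi-square per degree of freedom of at least 4.40), so none was counted as 1 library. Positions are from GENCODE 44. The text names all 7 genes, from each list at most the 2 called genes of largest change in a comparison with a mean of at least 5 CPM, the 2 genes of most similar pattern, and genes overlapping a member.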

Additional observations from a re-analysis of the deposited data

Results flagged for a closer look

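The response of 3 of the genes differed between the 2 lines by a test of the difference itself, in edgeR's quasi-likelihood fit of all 16 libraries. The difference was called for 2 of 6 genes for ATRA, beside 19.4% of all genes. For both agents it was called for 3 of 6, beside 40.6% of all genes. For RUNX2 the difference, U-937 minus SKNO-1, was 2.16 on the log2 scale for ATRA and 2.19 for both agents. For RUNX1, whose SKNO-1 reads include those of the fusion, it was 0.79 for ATRA and -0.71 for both agents, so that its sign turned when Corin was added. These RUNX1 calls were lost under 8 and 4 of 23 alternatives. For RUNX3 the difference was -0.72 for both agents. The median difference over all genes in the response to both agents was -0.11. Medium and line cannot be told apart in these 5 results.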

How the results depend on the processing

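Of 41 called results for single genes, 22 kept their call under every alternative tried, 19 lost it under at least 1, and 0 changed sign. In SKNO-1, the number of genes called for ATRA went from 2 to 0 and for Corin from 3 to 0 when only the 4 libraries compared were fitted. Over all genes the calls went from 1181 of 17479 to 239 of 15866 for ATRA and from 6619 of 17479 to 3776 of 16724 for Corin. For both agents against ATRA in SKNO-1, 1 call became 2 with DESeq2, 4 without the low-count filter, 2 with the GC trend removed and 4 with only the libraries compared. Over all genes, 7828 of 17479 became 7085 of 17479, 8869 of 30668, 9124 of 17479 and 10578 of 16745 in that order. For both agents against Corin in SKNO-1, 2 calls became 4 with DESeq2, 5 without the filter and 5 with only the libraries compared. All genes called went from 1822 of 17479 to 2545 of 17479, 4238 of 30668 and 7440 of 17049. With library totals, ATRA in U-937 gave 1 call in place of 3, and the difference between the lines in the ATRA response gave 1 in place of 2. All genes called were then 7386 of 17717 in place of 7405, and 4084 of 19872 in place of 3850. The difference in the Corin response gave 1 call in place of 0 without the filter, with 2950 of 35312 genes called in place of 2538 of 19872. The causes were not tested.

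Leaving out each library in turn, with a lone library assumed to vary like the other groups, gave these ranges of calls. Calls over all genes moved between these fits too, so the ranges describe the fits and not these genes alone. In SKNO-1 they were 0 to 4 for ATRA, 0 to 4 for Corin, 3 to 4 for both agents, 1 to 4 against ATRA alone, 0 to 5 against Corin alone and 0 to 2 for the departure from additivity. In U-937 they were 1 to 3 for ATRA, 0 to 1 for Corin, 4 for both agents, 3 to 5 against ATRA alone, 3 to 4 against Corin alone and 2 to 3 for the departure. Between the lines they were 4 to 7 for DMSO, 1 to 3 for the ATRA response, 0 to 2 for Corin and 2 to 3 for both agents. CBFB with ATRA in SKNO-1, at 0.01, was -0.20 with DMSO replicate 1 left out and 0.16 with replicate 2 left out.

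Replicate numbers are shared between groups, and the labels do not say whether they pair the libraries. Replicate differences of 2 groups correlated across genes at -0.488 to 0.418. These differences also followed GC content (r = -0.423 to 0.796), so the correlations cannot decide whether libraries were paired. With the replicate number as a block, 3 calls were lost and 0 gained, giving 2 calls for Corin in SKNO-1, 4 for both agents against ATRA in U-937 and 2 for the departure in U-937. All genes called in these fits were 5927 of 17479, 8090 of 17717 and 3816 of 17717. The block with the GC trend removed gave 3 calls for both agents against ATRA in U-937, with 8518 of 17717 genes called.

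Library totals moved the median log2 change of all genes by over 0.1 in 4 comparisons: from 0.03 to -0.09 for both agents against DMSO in U-937, from 0.02 to -0.11 against Corin there, from -0.01 to 0.15 between untreated lines, and from -0.11 to -0.26 for the difference in the response to both agents. CBFA2T3, with 20 to 137 counts a library, and RUNX1T1 in U-937 were limited by depth.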
